A study of Mus musculus with 74 samples.

Results

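The genes described here rose when mouse embryonic stem (ES) cells lost LIF, the cytokine that keeps them undifferentiated, and stood at about the same level whether or not Nanog was induced. They were chosen on the libraries of Nanog SunTag cells by 3 conditions. The mean without LIF and without Dox was at least 100 normalised counts, it was at least 4 times the mean with LIF and without Dox, and of the means without LIF, with and without Dox, the smaller was at least 0.8 times the larger. Of the 37620 genes in the tables, 510 met the first 2 conditions and 69 met all 3. Of the other genes among the 510, 425 had a ratio of +Dox to -Dox under 0.8 and 16 a ratio above the upper limit. A normalised count is the estimated number of reads of a gene divided by a size factor for the library, so that libraries can be compared.

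The study induced Nanog or removed it in mouse ES cells and measured RNA by sequencing. SunTag cells derive from E14Tg2a ES cells and carry a dead Cas9 with a chain of epitopes, to which an activator binds; both are expressed with Dox (doxycycline), and a guide RNA takes them to a chosen gene. Nanog SunTag cells carried the guide for Nanog, and Nanog/Otx2 SunTag cells were made from them by adding a guide for Otx2. Both were cultured for 3 days in serum with LIF (10 ng/mL) or without it, and with Dox (1 µg/mL) or without it. Nanog SunTag cells gave 3 libraries with LIF and without Dox, 2 with LIF and Dox, 3 without LIF and Dox, and 3 without LIF and with Dox, from 1 cell clone for each of the parental clones C1 and C2. The libraries with LIF and without Dox were C1_1, C2_1 and C2_2. Those without LIF and Dox were C1_1, C1_2 and C2_1, so the clones were not balanced in the LIF contrast that chose the genes. Nanog/Otx2 SunTag cells gave 3, 4, 4 and 4 libraries of the same conditions, from clones C1ON3 and C2ON3. Their columns carry another prefix (B426) than those of all other cells (HV), whose meaning the labels do not give, so a difference between the guides cannot be told apart from whatever the prefix marks. No test below sets Nanog/Otx2 cells against Nanog SunTag cells, and levels given for both are a description. 44iN cells lack both copies of Nanog and carry a Nanog transgene that Dox switches on. They gave 2 libraries with Dox, 2 taken 24 h after its removal and 2 from long-term culture without it, and wild-type Tg2a cells in FCS (fetal calf serum) gave 3, all of them with LIF. Libraries of one group come from few clones, so p-values measure the spread between these libraries, which may be technical.

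Nanog is a transcription factor of the naive pluripotency network, which LIF supports through Stat3. Without LIF, ES cells leave this state and pass through a formative stage that resembles the early epiblast, in which Otx2, Fgf5 and the Zic and Lef1 genes are switched on. Nanog is known to hold back part of this programme, including Otx2 itself, and Otx2 is a homeobox factor that drives the exit from naive pluripotency.

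The guides that set the induced genes apart are shown with the bases of the NGG motif after them in capitals, as found in mm9, the build of the files. The Nanog guide matched chr6:122657269-122657288 on the plus strand, with its centre at -229 bases from the annotated start of Nanog. The Otx2 guide matched chr14:49282649-49282668 on the minus strand, 4661 bases into the annotated gene.
Nanog guide: cttcccactagagatcgccaGGG
Otx2 guide: aatgtagagcgtgcatttggAGG

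In the Nanog/Otx2 SunTag cells both targets followed the labels. With LIF, Nanog was at 18320.4 to 20533 normalised counts without Dox and at 40628 to 48558 with it. Without LIF, it was at 1974 to 6867 and, with Dox, at 31697 to 48470.5. Otx2 was at 736 to 1062 with LIF alone, at 3214 to 3806 with LIF and Dox, at 3372 to 5148 without LIF and Dox and at 6827 to 7347 without LIF and with Dox. In Nanog SunTag cells without LIF, Otx2 was at 4254, 3534 and 4927 without Dox and at 2248, 2484 and 2619.5 with it. Estimated counts summed to between 6107512 and 92244655 per library, and the shallowest library was C2ON3_1 of Nanog/Otx2 cells with LIF and without Dox. The libraries also differed in how the level of a gene depended on its GC content. The trend at 40% GC minus that at 55%, on the log2 scale, was -0.68 to 0.58 in the 3 libraries of Nanog SunTag cells with LIF and without Dox, of which C1_1 was the highest, -0.18 to 0.10 without LIF and Dox, -0.997 to -0.47 in all Nanog/Otx2 libraries and 0.41 to 2.44 in 44iN and Tg2a libraries.

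The levels that the rule used are given as a description. The highest mean without LIF and Dox was that of Gm11808, a gene of 504 exonic bases, at 14494 normalised counts. It was followed by Peg3, an imprinted zinc finger gene, with 4716 ± 1143 (SD, n = 3), Esrp1, a splicing regulator of epithelial cells, with 4351 ± 395, Zic5 with 4007 ± 106 and Lef1 with 3016 ± 453. Pls3, an actin bundling protein, Ank2, a membrane scaffold, and Zfp871, a zinc finger protein, completed the highest 8. The largest ratios to the mean in LIF were 222 for Gm10053, 71.5 for Slc35d3, an orphan nucleotide sugar transporter, 70.6 for Ror1, a Wnt5a receptor, 52.8 for Gm10051 and 29.9 for Fermt1, an integrin activator. Cdk14, Galnt3 and Myl9 followed with 23.3, 17.9 and 14.2.

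The members just inside the limits were close to genes just outside. By level, P2ry1 (109 normalised counts) and Hdac9 (116) were in, and Cables1 (98.7) and Trpc1 (98.8) were out. By fold, Serinc5 (4.04) and Gm11808 (4.07) were in, and Dll1 (3.99) and Gramd3 (3.94) were out. By the ratio of +Dox to -Dox, Zic5 (0.803) and Fermt1 (0.809) were in and Gulp1 (0.799) and Gm16425 (0.798) out at the lower limit, and Dgkk (1.23) and Ptar1 (1.21) were in and Enpp3 (1.28) and Gpm6b (1.30) out at the upper limit. Leaving out 1 library at a time gave 58 to 99 genes, of which 47 to 61 were among the 69. The 99 came without C1_1 with LIF and without Dox, and the 47 without C2_1 without LIF and Dox.

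Lists of genes of known programmes held 1 to 3 of the 69 each or none. Of 20 genes of formative epiblast in a list, 11 met the LIF conditions, and 8 of these had a ratio under 0.8. The remaining 3 were members, namely Fgf15, an FGF ligand, Lef1, the nuclear partner of β-catenin, and Zic5. The lists of Wnt, FGF and ERK, Notch, actin and SRF targets and imprinted genes each held 1 member (Lef1, Fgf15, Dll3, Myl9 and Peg3). The other 18 of the 24 lists held none. Among those, 10 of 40 axon guidance genes, 6 of 20 cadherins and protocadherins, 5 of 35 genes of Nodal, activin and BMP and 5 of 23 epithelial-mesenchymal genes met the LIF conditions, and all of these had a ratio under 0.8. So did 425 of all 510 genes that met the LIF conditions, of which 69 were members. Few members are therefore due in lists of this size. By function, 13 of the 69 are transcription factors or chromatin proteins, 18 are signalling ligands, receptors and their partners, 8 act in the cytoskeleton and adhesion, 4 bind RNA or caps, 10 are membrane, traffic or metabolic proteins, and 16 were assigned to none of these. These groups were drawn up after the members were known. Srcap, Hdx, Gm14306, Gdap10, Farp1, Chml, Ror1, Fmn1, Reln, Cdk14, Mamdc4, Mecom, Gm20459 and Spats2l overlap another annotated gene on the same strand, so that reads may have been split between them.

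**Figure D1:**
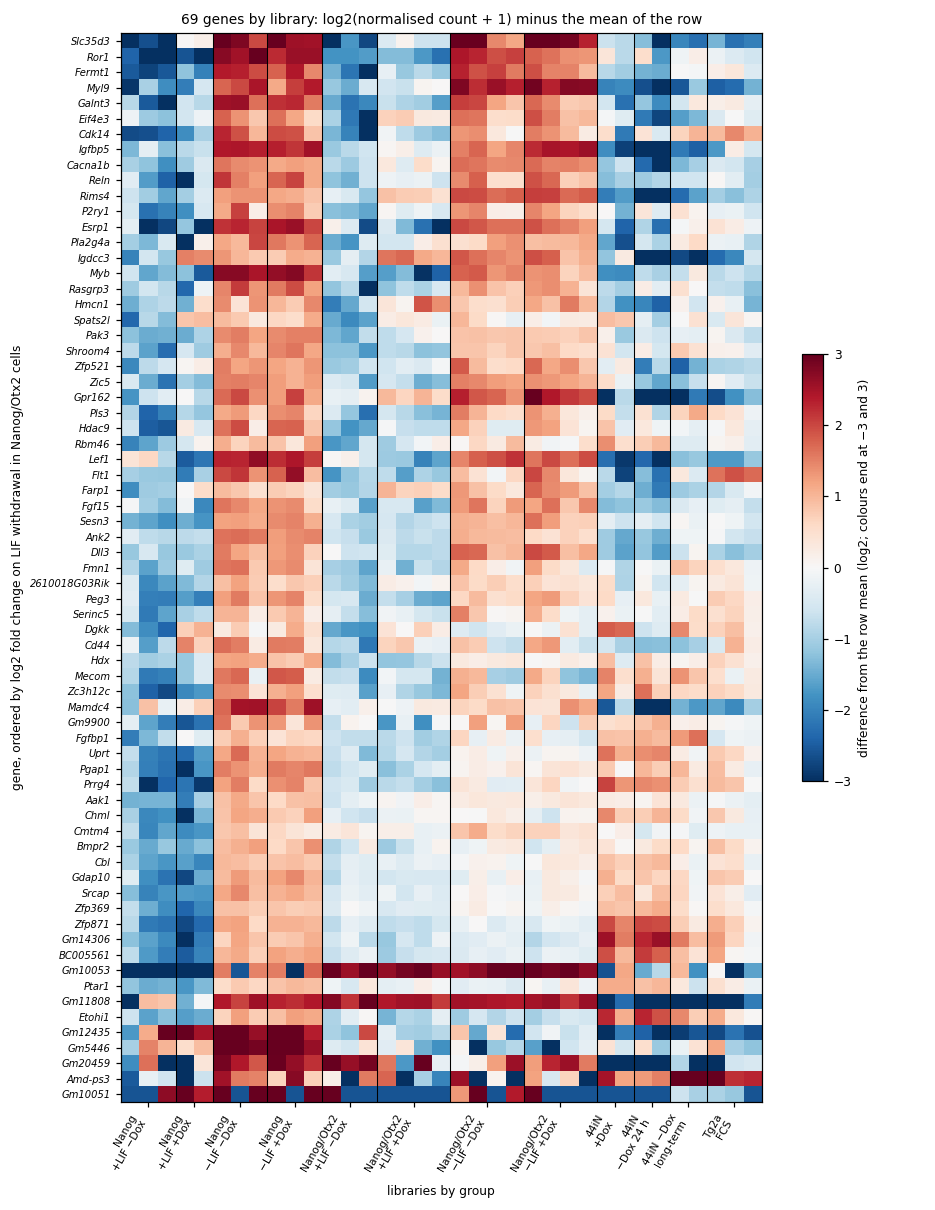
Level of the 69 genes (rows) in the 35 libraries (columns, by group), as log2(normalised count + 1) minus the mean of the row, with rows ordered by the log2 fold change on LIF withdrawal in uninduced Nanog/Otx2 cells and the 2 genes not tested there last. The contrast between LIF and no LIF in the uninduced Nanog SunTag libraries follows from the choice, and the contrast fades towards the bottom of the Nanog/Otx2 libraries.

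LIF withdrawal raised most of the genes in the Nanog/Otx2 cells as well. These libraries had no part in the choice. Without Dox, 50 of the 69 genes were called higher without LIF and 0 lower by edgeR's quasi-likelihood test (Benjamini-Hochberg adjusted p under 0.05), against 24.6% of all 15609 genes tested called higher and 25.2% lower (49.8% either way). Of the 69, 67 passed the filter on low counts, and none of these passed only through groups without LIF. The median log2 fold change of the 67 was 1.71, against -0.01 over all genes tested. The genes with a ratio under 0.8 stood beside this with 412 of 425 called higher and a median of 2.54. With Dox, 45 of the 69 were called higher and 0 lower, against 18.7% and 17.9% of all genes (36.5% either way), with a median of 0.98.

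The transcription factors Lef1, Zic5 and Myb rose without LIF in the Nanog/Otx2 cells. Lef1 was at 577, 622 and 389 normalised counts with LIF and at 1554, 1938, 2148 and 2539.7 without it, both without Dox (log2 fold change 1.88, standard error 0.23, adjusted p = 7.78e-06). Zic5, a zinc finger factor of the early neural plate and epiblast, was at 1059, 982 and 444 with LIF and at 4039.5, 3864, 3353 and 3226 without (log2 fold change 2.05, standard error 0.26, adjusted p = 1.29e-05). Myb, a factor of progenitor cells, was at 176, 157 and 69.4 and at 757, 787, 549.6 and 622 (log2 fold change 2.20, standard error 0.34, adjusted p = 7.66e-05). None of the 3 had overlapping groups. All libraries without LIF lay above those with LIF for 52 of the 69 genes and for 25.9% of all genes tested, and below them for 22.6% of all. In all, 7 of the 13 transcription factors and chromatin proteins were called higher (50 of the 69, and 24.6% of all genes tested), the others being Peg3, Zfp521, Hdx and Hdac9.

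Genes of signalling were called higher in 16 of 18 cases, beside 50 of the 69 as a whole and 24.6% of all genes tested. All members were chosen for a rise on LIF withdrawal in Nanog SunTag cells, so these counts are no result about a function. Fgf15 was at 452, 402 and 171 normalised counts with LIF and at 1274, 1619, 846 and 1284 without it (log2 fold change 1.77, standard error 0.34, adjusted p = 0.000544). Ror1 was at 16.8, 17.0 and 18.5 and rose to 332, 299.8, 234 and 254 (log2 fold change 3.99, standard error 0.26, adjusted p = 1.54e-08). Dll3, a Notch ligand that acts within the cell that makes it, was at 78.5, 49.9 and 50.9 and at 267, 256, 143 and 155 (log2 fold change 1.71, standard error 0.32, adjusted p = 0.000442). Within both conditions the groups of these 3 genes did not overlap. The 2 signalling genes not called were Bmpr2, a BMP receptor, with a log2 fold change of 0.43, and Cd44, a hyaluronan receptor, with 1.26.

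All 8 genes of the cytoskeleton and adhesion and all 4 RNA-binding and cap-binding genes were called higher, beside 50 of the 69 and 24.6% of all genes tested. Myl9, a myosin light chain of contractile cells, was at 76.4, 59.5 and 120.4 normalised counts with LIF and at 1189.6, 796, 1022 and 857 without it (log2 fold change 3.62, standard error 0.27, adjusted p = 6.65e-08). Fermt1 was at 52.98, 30.6 and 13.9 and at 713, 538, 597 and 421 (log2 fold change 3.89, standard error 0.36, adjusted p = 5.38e-07). Esrp1 was at 1065, 722 and 148 and at 3823, 3521, 3055 and 3023 (log2 fold change 2.26, standard error 0.53, adjusted p = 0.00261). The largest rise of all was that of Slc35d3, from 3.35, 10.2 and 4.63 to 292, 291, 99.9 and 82.4 (log2 fold change 4.78, standard error 0.59, adjusted p = 1.04e-05), with the C1ON3 libraries far above the C2ON3 libraries without LIF.

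**Figure D2:**
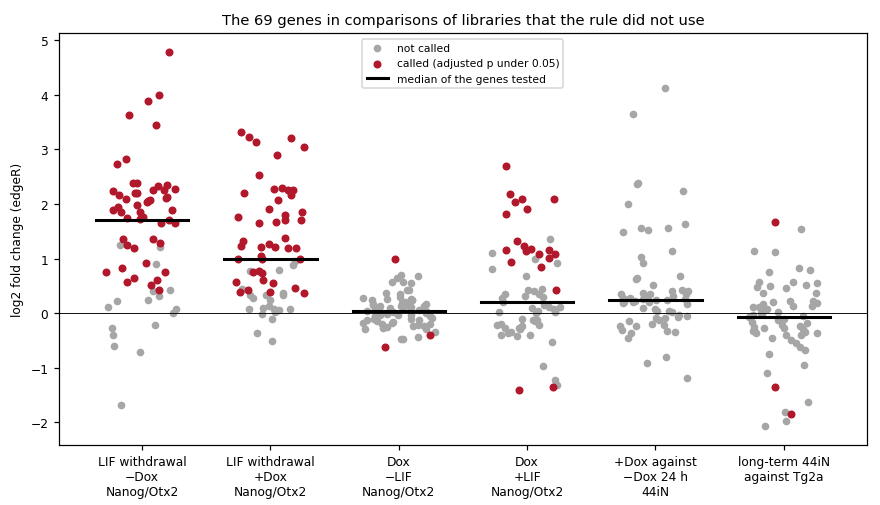
Log2 fold change (edgeR) of each of the 69 genes that was tested, in 6 comparisons of libraries that did not enter the choice, with called genes in red and the median as a bar. The medians are 1.71 and 0.98 for LIF withdrawal without and with Dox, 0.04 and 0.21 for Dox without and with LIF, 0.24 in 44iN cells and -0.06 for long-term 44iN against Tg2a cells.

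The remaining 19 genes were not called higher, and among them Gm10051 and Amd-ps3 were not tested. Zfp871 was at 607, 876 and 801 normalised counts in Nanog/Otx2 cells with LIF and at 894, 1063, 784 and 898 without (log2 fold change 0.23, standard error 0.14, adjusted p = 0.183), whereas in Nanog SunTag cells it was at 597, 238 and 223 and at 2324, 2400.4 and 1596. Its groups overlapped in the first cells and not in the second. The zinc finger genes Zfp369, Gm14306 and Etohi1 (Zfp971 in RefSeq), the chromatin remodeller Srcap (ENSMUSG00000053877), the prenyltransferase subunit Ptar1, Gdap10 and BC005561 had log2 fold changes of -0.40 to 0.41 in the Nanog/Otx2 cells.

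In Tg2a cells Zfp871 was at 2236, 1716 and 1119.6 normalised counts, and 10 of the 19 genes had a mean of at least 0.5 times that of Nanog SunTag cells without LIF and Dox, as did 17 of the 50. The median GC content of the exons was 45.1% in the 19, 47.3% in 49 of the 50 with an annotation (Eif4e3 had none), and 50.1% in all genes tested. The GC trends of the libraries given above moved with the contrast that chose the genes: 2 of the 3 Nanog SunTag libraries with LIF (C2_1 and C2_2) lay below all 3 without LIF, and C1_1 lay above them. In uninduced Nanog/Otx2 cells the trend was -0.64 to -0.47 with LIF and -0.85 to -0.55 without. With the trend divided out of the normalised counts, 70 genes met the rule and 55 of them were among the 69, namely 38 of the 50 and 17 of the 19, and 64 of the 69 kept a fold of at least 4. With the trend in the fit, 48 of the 69 were called higher on LIF withdrawal in the Nanog/Otx2 cells, against 23.2% of all genes. Whether the trend has a part in the choice of the single genes was not tested.

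**Figure D3:**
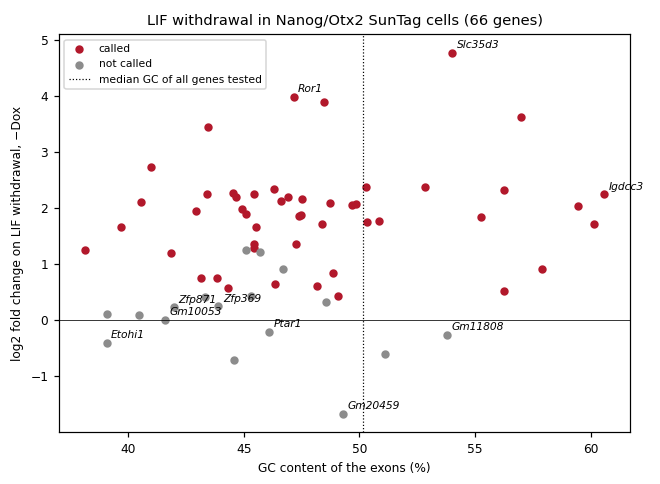
Log2 fold change on LIF withdrawal in uninduced Nanog/Otx2 cells against the GC content of the exons, for 66 genes with both values. Called genes are red, and most of the genes not called lie below 1 on the log2 scale. In both sets most genes lie to the left of the median GC content of all genes tested (50.1%, dotted line).

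The levels of several entries named Gm were uncertain, all but Gm20459 being short genes that resemble copies of other genes. Gm11808 was at 166, 5456 and 5074 normalised counts in Nanog SunTag cells with LIF and at 19428, 12999.7 and 23132 in Nanog/Otx2 cells with LIF. Gm10053 was at 685, 38.8 and 663 in Nanog SunTag cells without LIF and Dox and at 1339, 1516, 2060.1 and 2068 in Nanog/Otx2 cells. Gm10051 was at 702, 0 and 1276. In each of these genes 1 library of a Nanog SunTag group stood far below the others. Estimated counts of near-identical copies depend on how shared reads were divided, so the levels of these genes are uncertain. Gm12435 was at 24.1, 179 and 891 in Nanog SunTag cells with LIF and at 1363, 2706 and 504 without, with overlapping groups. Gm20459 was at 229, 141 and 167 with LIF and at 21.1, 25.1, 53.3 and 136 without in Nanog/Otx2 cells (log2 fold change -1.67, adjusted p = 0.0972), in the opposite direction to the choice, and it overlaps 3 annotated genes on its strand. Without the Gm, pseudogene and non-coding entries, 59 genes were left, of which 50 were called higher. All entries set aside were among the genes not called higher, so the step could only raise the called share. No share of all genes filtered in this way is given beside it.

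Cd44 and Mecom differed between clones without LIF. Cd44 was at 35.5, 37.4 and 13.9 normalised counts with LIF and at 121, 112, 42.5 and 39.0 without it, both without Dox. Mecom, a zinc finger oncoprotein, was at 32.2, 33.4 and 13.9 and at 116, 108, 26.6 and 25.6, in each case with the C1ON3 libraries given first. With clone and replicate number as a block, both were called (log2 fold changes 1.60 and 1.54, adjusted p = 2.86e-05 and 0.00189). In this fit 57 of the 69 were called higher, against 30.1% of all genes, and 2 were called lower, against 31.6%, namely Etohi1 (-0.46) and Gm20459 (-1.98).

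Dox without LIF changed few of the genes in the Nanog/Otx2 cells too. There, Dox raised Nanog and Otx2 together. Of the 69 genes, 1 was called higher and 2 lower, against 11.2% and 6.15% of all genes tested (17.3% either way), and the median log2 fold change was 0.04 (all genes, -0.01). Of the genes with a ratio under 0.8 in Nanog SunTag cells, 144 of 425 were called lower and 4 higher, with a median of -0.49. With the replicate block, 5 of the 69 were called higher and 4 lower, and 33.4% of all genes were called in either direction. The naive markers (10 genes, the induced Nanog among them) rose meanwhile, their summed level ranging from 5250.3 to 10003 normalised counts without Dox and from 52417 to 65467 with it, and 10 of 10 were called higher. Most of the rise of the sum was that of Nanog, at 1974 to 6867 without Dox and 31697 to 48470.5 with it. The formative markers (7 symbols, 8 entries, Lef1 and Otx2 among them) ranged from 100894 to 123620.0 without Dox and from 70065 to 79127 with it. Their part in the few changes among the 69 was not tested.

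The 3 genes called were Igfbp5, Ror1 and Ank2. Igfbp5, a secreted binding protein of insulin-like growth factors, was at 142, 168, 114 and 139 normalised counts without Dox and at 238, 280.2, 269 and 299 with it (log2 fold change 0.99, standard error 0.16, adjusted p = 0.000725), and in Nanog SunTag cells at 267, 270.2 and 253 and 254, 223 and 289. Its call did not depend on any 1 library. Ror1 was at 332, 299.8, 234 and 254 and at 209, 191, 159.9 and 153 (log2 fold change -0.62, standard error 0.18, adjusted p = 0.0308). Ank2 was at 1548, 1427, 1405 and 1367 and at 1092, 984, 1165 and 1021 (log2 fold change -0.39, standard error 0.11, adjusted p = 0.021). The groups of these genes did not overlap, as was so for 11.2% of all genes tested in the upward and 11.8% in the downward direction. The call of Ror1 was lost without any one of 5 libraries (C1ON3_1 or C1ON3_2 without Dox, or C1ON3_2, C2ON3_1 or C2ON3_2 with Dox; log2 fold changes -0.65 to -0.52), and that of Ank2 without any one of 3 (C1ON3_1 without Dox, or C1ON3_2 or C2ON3_2 with Dox; -0.38 to -0.36). With the block, Farp1 (0.58, adjusted p = 0.00129), Gpr162, Slc35d3 and Prrg4 were also called higher, and Myb (-0.49, adjusted p = 0.0108) and Fermt1 lower.

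The groups with and without Dox overlapped for Esrp1, Lef1 and Fgf15. Esrp1 was at 3823, 3521, 3055 and 3023 normalised counts without Dox and at 3600.0, 3045, 2686 and 2269 with it (log2 fold change -0.18, standard error 0.45, adjusted p = 0.834). Lef1 was at 1554, 1938, 2148 and 2539.7 and 1719.9, 2198, 1753 and 2168 (log2 fold change -0.02, standard error 0.19, adjusted p = 0.954), and Fgf15 at 1274, 1619, 846 and 1284 and 1204, 1674, 929 and 1448 (log2 fold change 0.10, standard error 0.29, adjusted p = 0.851). A p-value that misses the threshold does not show that the levels were equal. Of the 20 formative genes, 3 were called lower and 2 higher with Dox, and 15 were called higher and 2 lower on LIF withdrawal.

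With LIF, Dox did change part of the list. Of the 69 genes, 19 were called higher and 2 lower in Nanog/Otx2 cells, against 12.9% and 10.0% of all genes tested (22.9% either way), and the median log2 fold change was 0.21 (all genes, -0.01). The genes with a ratio under 0.8 had 125 of 425 called higher and 38 lower. With the block, 26 of the 69 were called higher and 4 lower, against 21.3% and 19.7% of all genes. Leaving out 1 library gave 11 to 19 called higher, the lowest without C1ON3_1 with LIF and without Dox (12 called in either direction).

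The risers included genes of the cell surface, the matrix and lipid signalling. Igdcc3, an immunoglobulin superfamily protein of the cell surface, was at 51.0, 92.4 and 60.2 normalised counts with LIF alone and at 343, 371, 245 and 223 with LIF and Dox (log2 fold change 2.09, standard error 0.31, adjusted p = 0.0004). Hmcn1, an extracellular matrix protein, was at 15.4, 22.7 and 46.3 and at 87.7, 72.4, 252 and 180.1 (log2 fold change 2.70, standard error 0.45, adjusted p = 0.000956). Dgkk, a diacylglycerol kinase, was at 34.2, 29.5 and 27.8 and at 134, 103, 166 and 119 (log2 fold change 2.08, standard error 0.24, adjusted p = 8.91e-05). In each of these genes the lowest library with Dox lay above the highest without, as in 16.6% of all genes tested. Farp1 was at 131, 124 and 148 and at 551, 434, 449 and 399 (log2 fold change 1.81, standard error 0.25, adjusted p = 0.000251), and Spats2l at 24.8, 18.7 and 23.1 and at 85.6, 92.0, 87.0 and 63.6 (log2 fold change 1.91, standard error 0.30, adjusted p = 0.000651). Pla2g4a, the cytosolic phospholipase A2, rose by 1.32 on the log2 scale, a call that was lost without C1ON3_1 or C1ON3_2 with LIF and without Dox (1.196 and 1.04).

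Lef1 and Myb fell. Lef1 was at 577, 622 and 389 normalised counts with LIF alone and at 262, 261, 139 and 187 with LIF and Dox (log2 fold change -1.35, standard error 0.22, adjusted p = 0.000789). Myb was at 176, 157 and 69.4 and at 68.9, 88.9, 27.1 and 40.2 (log2 fold change -1.40, standard error 0.34, adjusted p = 0.00926). The groups of Lef1 did not overlap, and 15.3% of all genes tested fell without overlap. Those of Myb did overlap, and the call of Myb was lost without C1ON3_1 with LIF and without Dox (-1.19). Cd44 was not called (1.35), and with the block it was (1.83, adjusted p = 6e-05).

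Nanog SunTag cells with LIF, in which Dox induced Nanog without the Otx2 guide, are described beside these. The values are given with no test, since the libraries without Dox entered the choice. Igdcc3 was at 26.8, 75.4 and 49.9 normalised counts without Dox and at 321 and 299 with it. Farp1 was at 74.98, 129 and 134 and at 276 and 402, and Dgkk at 40.2, 26.8 and 18.7 and at 166 and 209. Spats2l was at 13.4, 40.2 and 28.7 and at 131 and 139. In these 4 genes the Dox libraries were the highest, as they were for Fermt1. The groups overlapped for Eif4e3, Rims4, Cacna1b, Pak3 and 2610018G03Rik, whose response in Nanog/Otx2 cells was also smaller without LIF. Rims4, for example, was at 107, 80.5 and 56.2 without Dox and at 82.1 and 125 with it. The choice also favoured genes with low values without Dox here. Lef1 was at 739, 865 and 315 and at 98.8 and 125, with both libraries with Dox below the others. Hmcn1 was at 24.1, 35.2 and 38.7 and at 24.2 and 98.7, and the groups overlapped. Otx2 itself was at 908, 704 and 740.3 without Dox and at 308 and 166 with it in these cells.

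**Figure D4:**
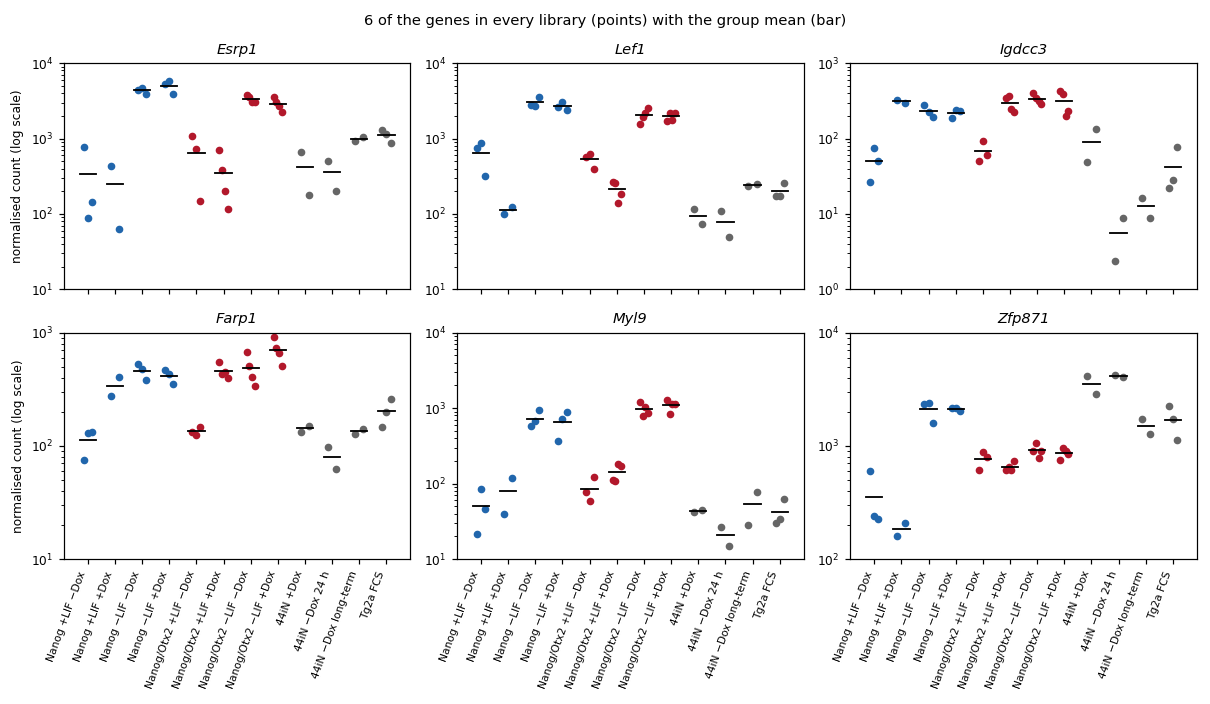
Normalised count (log scale) of 6 of the genes in every library (points), with the group mean as a bar; Nanog SunTag libraries are blue, Nanog/Otx2 SunTag libraries red and 44iN and Tg2a libraries grey. Esrp1, Lef1 and Myl9 rise without LIF with or without Dox, Igdcc3 and Farp1 reach with LIF and Dox about the level that they have without LIF, and all 44iN and Tg2a libraries of Zfp871 lie above those of uninduced Nanog/Otx2 cells.

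The response to Dox differed between LIF and no LIF for 12 of the 69 genes by the test of the interaction, against 9.70% of all genes tested (5.15% higher and 4.55% lower). Of the genes with a ratio under 0.8, 148 of 425 were called, all of them lower. Their median interaction was -0.93, against -0.21 in the 69, so such a difference was not particular to the 69. For 11 of the 12 members the response was smaller without LIF, and for Lef1 the log2 fold change was -1.35 with LIF and -0.02 without it (interaction 1.33, standard error 0.29, adjusted p = 0.0103). The largest were Igdcc3 (-2.17, adjusted p = 0.00311), Hmcn1 (-2.14, adjusted p = 0.0252) and Spats2l (-2.14, adjusted p = 0.00294). With the block, 26 genes were called, and 21.8% of all genes. Leaving out 1 library gave 6 to 13, the 6 without C1ON3_2 with LIF and without Dox. The call of Hmcn1 was lost without any one of 4 libraries (C1ON3_1 or C1ON3_2 with LIF alone, C2ON3_2 with LIF and Dox, or C1ON3_2 without LIF and with Dox; -2.12 to -1.82).

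In 6 of the 19 risers the mean with LIF and Dox was at least 0.75 times the mean without LIF and Dox. These were Dgkk (1.67), Hmcn1 (1.38), Farp1 (0.949), Igdcc3 (0.874), Aak1 (0.842), an endocytic kinase, and Spats2l (0.838). For 5 of the 6 LIF withdrawal in the presence of Dox gave no call, with log2 fold changes of -0.37 to 0.23, although with the block Aak1 was called (0.23, adjusted p = 0.0473). Farp1 was called (log2 fold change 0.60, standard error 0.20, adjusted p = 0.0309), a call lost without any one of 5 libraries with Dox (C1ON3_2, C2ON3_1 or C2ON3_2 with LIF, or C1ON3_1 or C1ON3_2 without; 0.45 to 0.60). At the other end, Fermt1, Myl9 and Slc35d3 had 0.146 to 0.148 of their mean without LIF, and were called higher on LIF withdrawal with Dox. Their calls follow from the low ratio in the same way. Of the 19, 12 were called in that comparison.

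**Figure D5:**
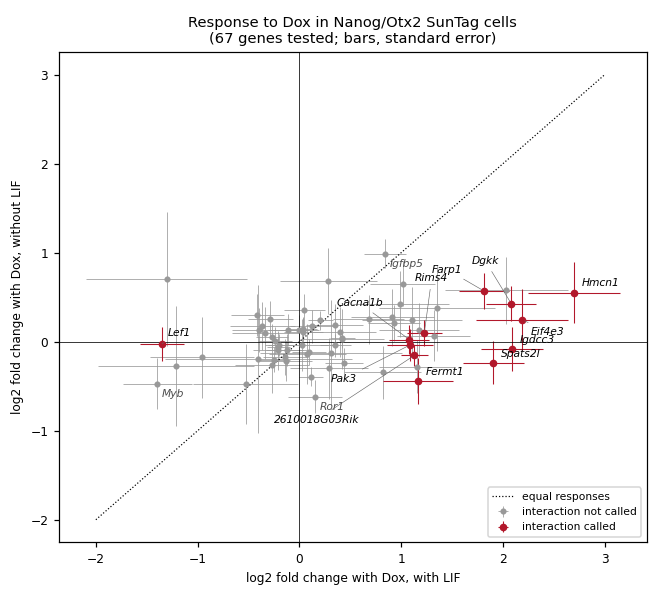
Log2 fold change with Dox in Nanog/Otx2 cells with LIF (x axis) and without LIF (y axis) for the 67 genes tested, with standard errors as bars and the 12 genes with a called interaction in red; the dotted line marks equal responses. Without LIF most genes lie within 0.5 of 0 on the log2 scale, while with LIF 11 of the red genes lie above 1 and Lef1 lies at -1.35.

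The 250 bases before the annotated start are shown for Igdcc3, with the largest difference in response, and for Lef1, the one gene with a difference of the opposite sign, with the motifs searched in capitals. Igdcc3 (chr9:64988711-64988960 of mm9, plus strand) holds 28 CpG, 2 GC boxes (GGGCGG) and 1 TCF core (CTTTGA, here on the other strand). Lef1 (chr3:130813139-130813388, plus strand) holds 26 CpG and 1 GC box.
Igdcc3: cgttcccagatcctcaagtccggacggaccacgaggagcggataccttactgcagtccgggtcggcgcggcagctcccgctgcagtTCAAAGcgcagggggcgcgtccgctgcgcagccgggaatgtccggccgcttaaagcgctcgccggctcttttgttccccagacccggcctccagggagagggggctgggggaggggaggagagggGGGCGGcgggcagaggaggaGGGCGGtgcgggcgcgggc
Lef1: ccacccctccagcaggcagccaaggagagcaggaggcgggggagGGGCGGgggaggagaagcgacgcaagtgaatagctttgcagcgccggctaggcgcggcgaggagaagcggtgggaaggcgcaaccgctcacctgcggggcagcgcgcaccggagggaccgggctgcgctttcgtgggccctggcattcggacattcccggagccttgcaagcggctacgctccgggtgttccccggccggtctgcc
These matches are letters in a window and not sites of binding. Of the 68 members with an annotation, 50.0% held a GC box on either strand (52.1% of the windows of 15572 genes tested), 35.3% a CCAAT box (35.7%), 5.88% the TCF core (11.3%) and 4.41% the OTX core TAATCC (6.07%). The octamer ATGCAAAT was in 3 of 68 windows (4.41%, against 1.33%). The median number of CpG was 11.5, against 13 over all genes tested.

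In 44iN cells no gene was called between Dox and 24 h after its removal, in the list or among all 14376 genes tested (0.00%), by edgeR. Nanog itself, at 13366 and 18394 with Dox and at 705.5 and 739 after removal, was not called (log2 fold change 4.56, adjusted p = 0.0902). Nor was Otx2 (-2.92, adjusted p = 0.156). The absence of calls here therefore does not show an absence of response. At an unadjusted p under 0.05 there were 7 of the 69 and 1023 of all genes, and DESeq2 called 3 of the 69 and 141 of all. Of the 69, 63 were tested, 6 of them through the libraries with Dox alone and 1 through those without, and the median log2 fold change was 0.24, against 0.04. The 3 called by DESeq2 were Dgkk, Zic5 and Igdcc3. Dgkk was at 358 and 333 normalised counts with Dox and at 64.8 and 76.9 24 h after removal (log2 fold change 2.38, standard error 0.38, adjusted p = 0.247 by edgeR). Zic5 was at 2019 and 1224 and at 638 and 476 (log2 fold change 1.63, standard error 0.32, adjusted p = 0.307), and Igdcc3 at 48.6 and 134 and at 2.40 and 8.87 (log2 fold change 4.13, standard error 0.91, adjusted p = 0.357). Eif4e3 (ENSMUSG00000093661, a symbol that another identifier also carries), a cap-binding protein, was at 63.4 and 51.3 and at 14.4 and 8.87, and Rims4, of the presynaptic active zone, at 38.6 and 51.3 and at 14.4 and 8.87. These 5 had the smallest p of the 69 in this comparison, so their groups are a description. Igdcc3, Eif4e3 and Rims4 passed the filter only through the libraries with Dox. The values of Igdcc3, Eif4e3 and Rims4 after removal stand for few reads. The GC trend was 0.68 and 2.12 in the libraries with Dox and 1.78 and 2.44 in those without, and with it in the fit Dgkk alone of the 69 was called. The summed naive markers were at 89518 to 90543 with Dox and at 82343 to 82662 without, and the summed formative markers at 5559.7 to 7232 and at 9382 to 10768. The naive markers include Nanog, and their sum fell by less than Nanog alone.

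Long-term loss of Nanog went with few called changes in the list in the fit without a block. With the replicate block, 5 of the 69 genes were called higher and 19 lower, against 14.7% and 17.7% of all genes, although these libraries share only a number. The values that follow are from the fit without a block. Of the 69 genes, 64 were tested against wild-type Tg2a cells, 1 was called higher and 2 lower, against 3.35% and 5.26% of all 14937 genes tested (8.61% either way). Fgfbp1, a carrier that frees FGF from the matrix, was at 473 and 619 normalised counts in 44iN cells and at 137, 178 and 171 in Tg2a cells (log2 fold change 1.67, standard error 0.24, adjusted p = 0.00882). Flt1, a VEGF receptor, was at 73.8 and 44.3 and at 185, 224 and 195 (log2 fold change -1.84, standard error 0.32, adjusted p = 0.0164). Eif4e3, the other gene that was lower, was at 20.1 and 25.2 and at 48.3, 65.4 and 51.0 (log2 fold change -1.36). The groups did not overlap in these genes. All 3 calls were lost without either 44iN library, which leaves 1 library in that group, and those of Flt1 and Eif4e3 also without Tg2a library 2 (log2 fold changes 1.42 to 1.84 for Fgfbp1, -2.28 to -1.56 for Flt1 and -1.56 to -1.20 for Eif4e3). The cells differ in more than Nanog, since 44iN cells are a derived line kept under G418 selection, and this cannot be told apart from the loss of Nanog. The summed naive markers were at 36608 to 36919.7 in the long-term cells and at 79779 to 84163 in Tg2a cells, with 7 of 10 called lower, and the summed formative markers at 19626 to 22629 and at 10916 to 12182. The naive markers include Nanog, at 276 and 228 in the long-term cells and at 19460, 20261 and 19420 in Tg2a cells. Their part in the changes was not tested. Lef1 was at 233 and 253 in the long-term cells and at 173, 173 and 256 in Tg2a cells, against 2774, 2735 and 3539 in Nanog SunTag cells without LIF and Dox.

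Properties of the 69 genes that the rule did not use are described here beside those of all genes tested. Of the 68 with an annotation, 64 are protein coding and 7 lie on chromosome X (10.3%, against 4.07% of all genes tested), namely Pls3, 2610018G03Rik, Shroom4, Hdx, Pak3, Uprt and Dgkk. All 7 were called higher on LIF withdrawal in Nanog/Otx2 cells. The median length of the exons was 4982.5 bases, against 3415 over all genes tested and 4765 in the genes with a ratio under 0.8. Of the genes with a ratio under 0.8, 31 of 425 lie on chromosome X (7.29%) and the median GC content was 50.4%, against 46.5% in the 69.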

How the data were processed

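RNA was sequenced in 35 libraries, and estimated counts per gene were deposited by the authors, who aligned reads to mm9 with STAR and quantified them with RSEM; base calling used CASAVA 1.8 per the submitters' processing notes. A second deposited table, of unit signal, holds these counts divided by DESeq2 size factors by the authors (normalised counts). Libraries were grouped by their labels, and the clone and number in the title were used where the column name differed. Members were found on the normalised counts of Nanog SunTag libraries. The members and gene lists were chosen with earlier results of these data known.

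Rounded counts were fitted with edgeR 4.0.16 (quasi-likelihood test, TMM scaling) in R 4.3.3, keeping genes for which some condition had 10 or more normalised counts throughout its libraries. The Nanog/Otx2 fit had terms for LIF, Dox and their interaction over 15 libraries, and the 44iN and the long-term fits had the group alone. P-values were adjusted by Benjamini-Hochberg over all genes tested, with a threshold of 0.05, and are two-sided. The scripts were tested on simulated data. DESeq2 1.42.0, other scalings and filters, single libraries left out, a replicate block and a GC correction (trend fitted over genes with a mean of at least 50) were the alternatives. The last, and DESeq2 with the block, were chosen after seeing the data. In Nanog/Otx2 cells, deviations from group means of same-numbered libraries correlated in all 21 pairs (mean r = 0.299, lowest 0.131), so blocked values are given where they change a result.

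Named genes were the 8 highest and the 8 with the largest fold, the largest called changes with Dox and in long-term culture with a mean of at least 100, the 5 with the smallest p in 44iN cells, the 6 lowest of those not called on LIF withdrawal, list members and genes next to the limits; others were chosen after their values were seen. Srcap is listed under 2 identifiers. Promoters and guides were located in mm9, and 37205 of the 37620 identifiers were found in its annotation. Pandas 2.3.3 and numpy 2.4.6 under Python 3.11.15 were used.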

Additional observations from a re-analysis of the deposited data

Results flagged for a closer look

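Lef1 had a response to Dox that was higher without LIF than with it by 1.327 on the log2 scale in Nanog/Otx2 cells, by the test of the difference itself. The response was lower without LIF for Igdcc3 (-2.172), Hmcn1 (-2.144), Spats2l (-2.141), Eif4e3 (-1.938), Dgkk (-1.653), Fermt1 (-1.602), 2610018G03Rik (-1.283), Farp1 (-1.241), Rims4 (-1.131), Pak3 (-1.124) and Cacna1b (-1.056), by the same test.

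A single library stood apart in 2 of 83 groups tested for an outlying sample, where chance gives about 1 in 20. In Nanog/Otx2 cells without LIF and with Dox, the gap of the outlying library of Gm10051 was 1 times the range of the group. In Nanog/Otx2 cells with LIF and Dox, that of Dll3 was 0.876 times the range.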

How the results depend on the processing

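The rule gave 31 genes with a ratio of 0.9 to 1.1 and 13 with a fold of at least 8, and 58 to 99 without single libraries. With the 31 genes, 22 were called (22 higher) on LIF withdrawal without Dox, 19 (19 higher) with Dox, 1 with Dox without LIF, 12 (11 higher) with Dox and LIF, 5 for the interaction and 1 in long-term culture. The shares of all genes called in these comparisons are given above. For Dox without LIF, 5 members were called with GC correction (18% of all genes), 9 with the replicate block (33.4%), 12 with the block by column numbers, 11 by DESeq2 with the block and 14 with block and GC correction (33.9%). For Dox with LIF, the last 3 gave 32, 33 (29 higher) and 33 (29 higher), the last against 40% of all genes. For the interaction, the block gave 26 (21.8% of all genes), and the other 3 gave 27, 30 and 25, the last against 22.8%. In 44iN cells, 3 members were called by DESeq2 (0.981% of all genes), 3 by DESeq2 with the block, 1 with GC correction (0.342%), 5 without a filter (1.97%), 10 with the replicate block (13.3%) and 7 with block and GC correction (9.13%). In long-term culture the same alternatives gave 7, 8, 8, 8, 24 and 18. All genes called there came to 15.4% by DESeq2, 22% with GC correction, 7.05% without a filter, 32.4% with the block and 28.1% with both.

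Without single libraries, 48 to 52 members (48 to 51 higher) were called on LIF withdrawal without Dox, 41 to 46 (41 to 46 higher) with Dox, 1 to 3 for Dox without LIF, 12 to 21 (11 to 19 higher) for Dox with LIF, 6 to 13 for the interaction, 0 to 15 in 44iN cells (15 without the first library with Dox) and 0 to 7 in long-term culture (0 without either 44iN library, 7 without Tg2a library 1). A fit that leaves 1 library in a group assumes that it varies like the others. Of the other values of these counts, 200 lay within 1.5 times the count given, and no named gene's log2 fold change reversed. For Dox without LIF, with 1 member higher and 2 lower, the balance turned to 3 and 2 with GC correction, 5 and 4 with the block and 9 and 5 with both. The cause of these differences was not tested. In 44iN and long-term cells the libraries share only a number: same-numbered 44iN libraries correlated at 0.492, and those of the long-term comparison at a mean of 0.134 (lowest 0.079). With 2 libraries in each 44iN group, the deviations from the group mean mirror each other. Pairs with different numbers must then have the same value with the opposite sign (-0.492), so it shows little about pairing.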
